A study of Homo sapiens with 6 samples.

Results

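The 10 genes ATF4, DDIT3, TRIB3, CHAC1, SESN2, ASNS, PSAT1, PHGDH, HSPA5 and XBP1 stand for the integrated stress response and the unfolded protein response of human cells. They were taken by symbol from the 81496 gene symbols of the deposited array table, and all 10 were found. Where a symbol had several probe sets (groups of short probes against one transcript), the probe set with the highest mean signal was used, which mattered for PHGDH alone. The parental line was MCF10.AT1, a preneoplastic, fluvastatin-sensitive line of the MCF10A series of breast epithelial cells, grown untreated and measured on arrays A01, A02 and A03. The other line was MCF10.AT1-R, its fluvastatin-resistant derivative, selected by rising fluvastatin doses (1 µM, 5 µM, up to 20 µM) and measured on arrays B02, B03 and B04. Both lines grew in the same MCF10.AT1 medium, and the sources used here do not say whether fluvastatin was present when RNA was taken from the resistant cells. MCF10.AT1-R is a single selected line, so what differs between the lines may belong to that one selection.

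When the endoplasmic reticulum holds too many unfolded proteins, the sensors PERK, IRE1 and ATF6 start the unfolded protein response. PERK, and other kinases that sense amino acid shortage, heme shortage or double-stranded RNA, phosphorylate the translation factor eIF2α. This lowers general protein synthesis while translation of ATF4, a transcription factor, goes up, and ATF4 then induces genes for amino acid supply and stress control. Statins block the synthesis of mevalonate, from which cholesterol, dolichol and the lipid anchors of small GTPases are made, and dolichol carries the sugars that are added to proteins in the endoplasmic reticulum. ATF4 is controlled largely through its translation and XBP1 through splicing of its mRNA, and neither step is read by an array signal over a whole transcript.

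By limma on 5 arrays, none of the 10 genes passed an FDR of 5% for a difference between the lines. A low-expression and low-variance filter left 6 of them for the test, and over all 51457 probe sets tested 1.20% passed, with 0.758% higher and 0.447% lower in MCF10.AT1-R. ATF4, PSAT1, HSPA5 and XBP1 varied too little over the 5 arrays to pass the filter, and are given from limma fitted to every probe set. At an unadjusted p under 0.05, PHGDH alone of the 6 was below the limit, against 8.26% of all tested probe sets. Without a filter PHGDH and TRIB3 were below it, against 6.70% of all probe sets. The median log2 difference of the 10 genes was -0.05, beside 0.00 over all gene symbols. The range ran from -0.65 for PHGDH to 0.53 for TRIB3, while the smallest difference among all probe sets that passed was 1.07 on the log2 scale. Log2 values of different genes come from different probes, so levels are compared between the lines and never between genes.

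The arrays allow a short account of their quality. A03 was removed by the study as an outlier and is shown apart here, since its correlation with each of the other arrays lay between 0.779 and 0.795, against 0.967 to 0.977 among those 5. Its added hybridization controls averaged 5.99, against 10.35 to 11.33 on the others. All 6 epithelial markers looked up (KRT5, KRT14, KRT17, TP63, CDH1 and EPCAM) were above the negative controls on all 5 arrays, with means from 5.37 to 9.80. Of these, 5 passed an FDR of 5% as higher in MCF10.AT1-R, by up to 4.08 for KRT17 on the log2 scale, though CDH1 did not without a filter (adjusted p = 0.0616 from limma). EPCAM, with a log2 difference of 0.78, did not pass (adjusted p = 0.341 from limma). Of 6 markers of other cells, the leukocyte gene PTPRC was within the negative controls on every array. The T-cell gene CD3E stayed near them, at 3.01 to 3.58. The fibroblast genes were measurable, with COL1A1 between 6.85 and 7.27 and DCN at 5.31 and 5.32 in MCF10.AT1 against 3.49, 2.76 and 3.25 in MCF10.AT1-R. The endothelial gene PECAM1 averaged 4.29 on the parental and 3.17 on the resistant arrays, and CDH5 averaged 3.27 and 3.08. DCN and PECAM1 passed an FDR of 5% as lower in MCF10.AT1-R (adjusted p = 3.88e-09 and 0.0307 from limma). PECAM1 did not without a filter (adjusted p = 0.17 from limma). The part of these markers in the results that follow was not tested. The array letter A or B goes with the line, so anything tied to that letter and the line cannot be told apart.

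**Figure D1:**
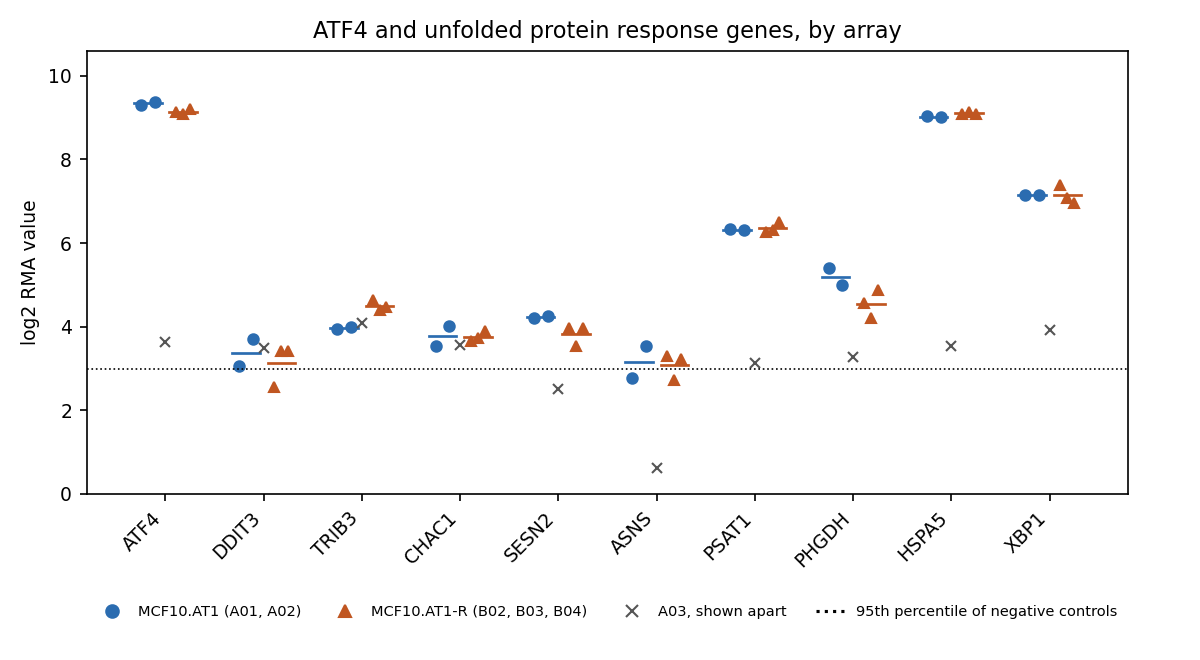
Log2 RMA values of the 10 genes on each array. Circles are the MCF10.AT1 arrays A01 and A02, triangles the MCF10.AT1-R arrays B02, B03 and B04, short bars their means, crosses A03, and the dotted line the 95th percentile of the negative controls (2.99). The marks of the lines lie close together for every gene, with TRIB3 slightly higher and PHGDH and SESN2 slightly lower in MCF10.AT1-R.

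ATF4, the transcription factor that carries the integrated stress response, read 9.31 and 9.37 on the MCF10.AT1 arrays and 9.14, 9.08 and 9.21 on the MCF10.AT1-R arrays (log2 values). All 3 resistant arrays thus lay below both parental arrays, by little. The log2 difference was -0.19, with a 95% interval from -0.61 to 0.22 and an adjusted p of 0.888 from limma without a filter. That interval allows a level between 0.655 and 1.16 times that of MCF10.AT1. On A03 ATF4 read 3.64, far under the other 5 arrays, and with that array counted as parental the difference would be 1.70 in the other direction. Among 35766 tested gene symbols, those with the most similar values over the 5 arrays, by Euclidean distance after centring each gene, were RPAP1 and SRSF2 (0.130 each), RP11-342M21.2 (0.131), timura (0.134) and SLC25A37 (0.138). None of these is one of the 10 genes or of the wider lists described further on. That absence says little, since only symbols past the filter were compared. ATF4 itself, PSAT1, HSPA5 and XBP1 did not pass it, and of the 104 genes of the wider lists 49 did. Genes that varied as little as ATF4 (SD 0.12, against a limit of 0.18) were thus not compared. RP11-342M21.2, at 1.74 to 2.16, was within the negative controls on all 5 arrays and gives no level.

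The regulators downstream of ATF4 differed in both directions, none past the test. DDIT3 encodes CHOP, the factor that turns lasting stress toward cell death. It read 3.05 and 3.70 in MCF10.AT1, against 2.55, 3.43 and 3.42 in MCF10.AT1-R, so the lines overlapped, and B02 was within the negative controls (2.99, their 95th percentile). Its log2 difference was -0.24 (95% interval -0.85 to 0.37, adjusted p = 0.854 from limma). With so low a signal a CHOP response that stayed near background would not have been detectable.

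TRIB3, a pseudokinase induced by ATF4 and CHOP that dampens AKT and ATF4 signaling, was the member with the largest positive difference. It read 3.95 and 4.0 in MCF10.AT1 and 4.63, 4.41 and 4.46 in MCF10.AT1-R, and every resistant array lay above both parental arrays. The log2 difference of 0.53 is 1.44-fold, with a 95% interval from -0.09 to 1.14 and an adjusted p of 0.713 from limma. With its own variance counted in limma without a filter, the interval was 0.10 to 0.95 (unadjusted p = 0.0212, adjusted p = 0.662).

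CHAC1 breaks down glutathione and is induced through ATF4. It read 3.53 and 4.02 in MCF10.AT1 and 3.65, 3.72 and 3.89 in MCF10.AT1-R. The resistant arrays fell between the parental ones, and the log2 difference was -0.02 (95% interval -0.63 to 0.59, adjusted p = 0.989 from limma). SESN2, a stress-induced inhibitor of mTORC1, read 4.22 and 4.26 in MCF10.AT1 and 3.98, 3.55 and 3.96 in MCF10.AT1-R. Its resistant arrays were all lower, with a log2 difference of -0.41 (95% interval -1.02 to 0.20, adjusted p = 0.806 from limma).

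Of the 10 genes, CHAC1 was the one with a C/EBP-ATF element, the composite site that ATF4 binds together with C/EBP factors, in the promoter window searched. The window ran from 250 bases before to 50 bases after one RefSeq start per gene (GRCh38.p14), and all 10 genes had one. The letters TGATGNAA were searched on both strands and occurred in 3.62% of 35116 windows. HERPUD1, a gene of protein degradation at the endoplasmic reticulum from the wider lists, held them too, so both stretches are shown on the gene's own strand with the matches in capitals. In HERPUD1 the further capitals mark an ER stress element II, which is ATTGG, 1 base of any kind and CCACG, found in 0.0541% of windows. A match is a description of letters and does not show that a factor was bound in these cells. Sites outside the window or near another start were not searched, so a gene without a match may still have the element.
CHAC1, chr15:40953247-40953284, plus strand: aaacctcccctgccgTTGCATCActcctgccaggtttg
HERPUD1, chr16:56931951-56932050, plus strand: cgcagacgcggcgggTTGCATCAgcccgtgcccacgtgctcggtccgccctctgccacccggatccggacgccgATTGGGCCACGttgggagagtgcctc

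Of the 3 enzymes of amino acid synthesis among the 10 genes, PHGDH alone separated the lines. PHGDH, the enzyme that opens serine synthesis from glycolysis, read 5.41 and 4.99 in MCF10.AT1 and 4.56, 4.22 and 4.88 in MCF10.AT1-R. All 3 resistant arrays lay below both parental arrays, although B04 at 4.88 and A02 at 4.99 were close. The log2 difference of -0.65 is 1.57-fold, with a 95% interval from -1.26 to -0.04 and an unadjusted p of 0.0372, and it did not pass after adjustment (adjusted p = 0.542 from limma). A further PHGDH probe set was within the negative controls on all 5 arrays, at 2.08 to 2.83, and gives no level. Averaged with it, PHGDH differed by -0.38.

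PSAT1, which catalyses the next step toward serine, read 6.33 and 6.31 in MCF10.AT1 and 6.26, 6.32 and 6.51 in MCF10.AT1-R. The lines overlapped, with a log2 difference of 0.04 (95% interval -0.39 to 0.47, adjusted p = 0.983 from limma without a filter). ASNS makes asparagine and is among the best known ATF4 targets. It read 2.78 and 3.54 in MCF10.AT1 and 3.29, 2.72 and 3.22 in MCF10.AT1-R, with A01 and B03 within the negative controls. Its log2 difference was -0.08 (95% interval -0.69 to 0.53, adjusted p = 0.953 from limma), and at this level a small change was not detectable.

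For both endoplasmic reticulum genes among the 10 the difference was at most 0.08 on the log2 scale. HSPA5 encodes BiP, the main chaperone of the reticulum lumen and the usual marker of the unfolded protein response. It read 9.04 and 9.01 in MCF10.AT1 and 9.08, 9.14 and 9.09 in MCF10.AT1-R. The resistant arrays all lay above the parental ones, but the log2 difference was only 0.08 (95% interval -0.33 to 0.49, adjusted p = 0.963 from limma without a filter). The upper bound corresponds to 1.40-fold. XBP1, the factor made active by IRE1, read 7.15 and 7.16 in MCF10.AT1 and 7.40, 7.07 and 6.95 in MCF10.AT1-R. These overlapped, with a log2 difference of -0.01 (95% interval -0.49 to 0.46, adjusted p = 0.994 from limma without a filter).

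HSPA5 was also the single one of the 10 genes with a full ER stress element in its window, the site through which ATF6 acts. The element was searched on both strands as CCAAT, 9 bases of any kind and CCACG, and stood in 0.0769% of 35116 windows. It is shown beside that of CRELD2, a chaperone-like gene of the wider lists that carries it in the opposite direction. The unfolded protein response element TGACGTGG occurred in 0.729% of windows and in none of the 10. Capitals mark the element, and each stretch is printed on the strand of its gene.
HSPA5, chr9:125241376-125241424, minus strand: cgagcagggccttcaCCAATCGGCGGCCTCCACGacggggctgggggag
CRELD2, chr22:49918539-49918587, plus strand: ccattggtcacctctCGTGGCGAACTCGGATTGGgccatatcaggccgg

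**Figure D2:**
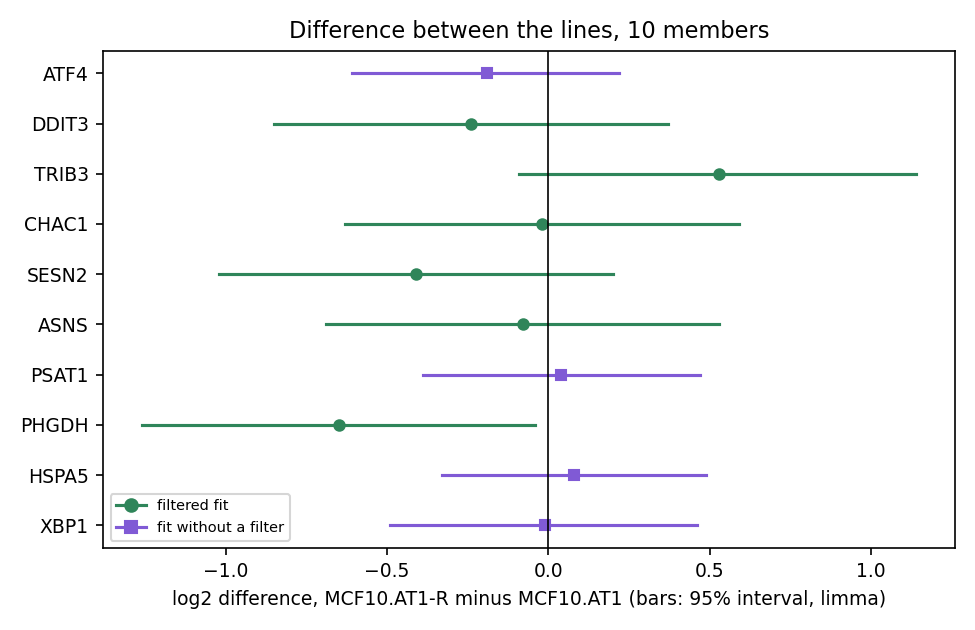
Log2 difference of each of the 10 genes, MCF10.AT1-R minus MCF10.AT1, with its 95% interval from limma. Green circles are genes tested after the filter and purple squares genes taken from the fit without one. The interval of every gene but PHGDH (-1.26 to -0.04) includes 0.

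For 5 of the 10 genes all arrays of one line lay on one side of the other, with MCF10.AT1-R above for TRIB3 and HSPA5 and below for ATF4, SESN2 and PHGDH. All 5 were among the 8 members above the negative controls on all 5 arrays. Over the 23867 gene symbols above the negative controls on all 5 arrays the lines did not overlap for 32.8%. Summed over the 10 genes, log2 values were 54.77 and 56.35 on the MCF10.AT1 arrays and 54.53, 53.67 and 55.59 on the MCF10.AT1-R arrays. The sums overlapped, and A03 had 31.77.

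A further 104 genes in 8 lists covered the rest of these responses, and 49 of them passed the filter. Only ATF3 and STC2 passed an FDR of 5%, 1 in each direction, which is 4.08% of those tested against 1.20% of all probe sets. In limma with the low-expression filter alone none of the 104 passed, against 0.268% of all probe sets, and none without a filter, against 0.130%. With a variance that follows the level 12 passed, 6 in each direction, against 2.68% of all probe sets. MCF10.AT1-R was higher for EIF2AK1, PPP1R15A, ATF3, SLC7A5, DNAJB1 and HSPB1 and lower for DDIT4, STC2, SLC7A11, IARS1, LARS1 and MANF. EIF2AK1 differed by 0.38, IARS1 by -0.53 and MANF by -0.36 (adjusted p = 0.0183, 0.0276 and 0.034 from limma in that fit). On data simulated with 200 changed probe sets, that fit too made more false calls than its nominal share. The median log2 difference of the 104 was -0.02. Among the 94 genes above the negative controls on all 5 arrays, the lines did not overlap for 45, or 47.9%, with MCF10.AT1-R above for 17 and below for 28. Over all such symbols MCF10.AT1-R was above for 17.2% and below for 15.7%. By list, the share without overlap was 85.7% for amino acid transporters (6 of 7) and 62.5% each for ATF4-related factors and chaperones. It was 55.6% for heat shock genes, 47.1% for sensors and eIF2 genes and 46.2% for tRNA genes. Serine and related enzymes had 22.2%, and degradation and translocation 20%.

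**Figure D3:**
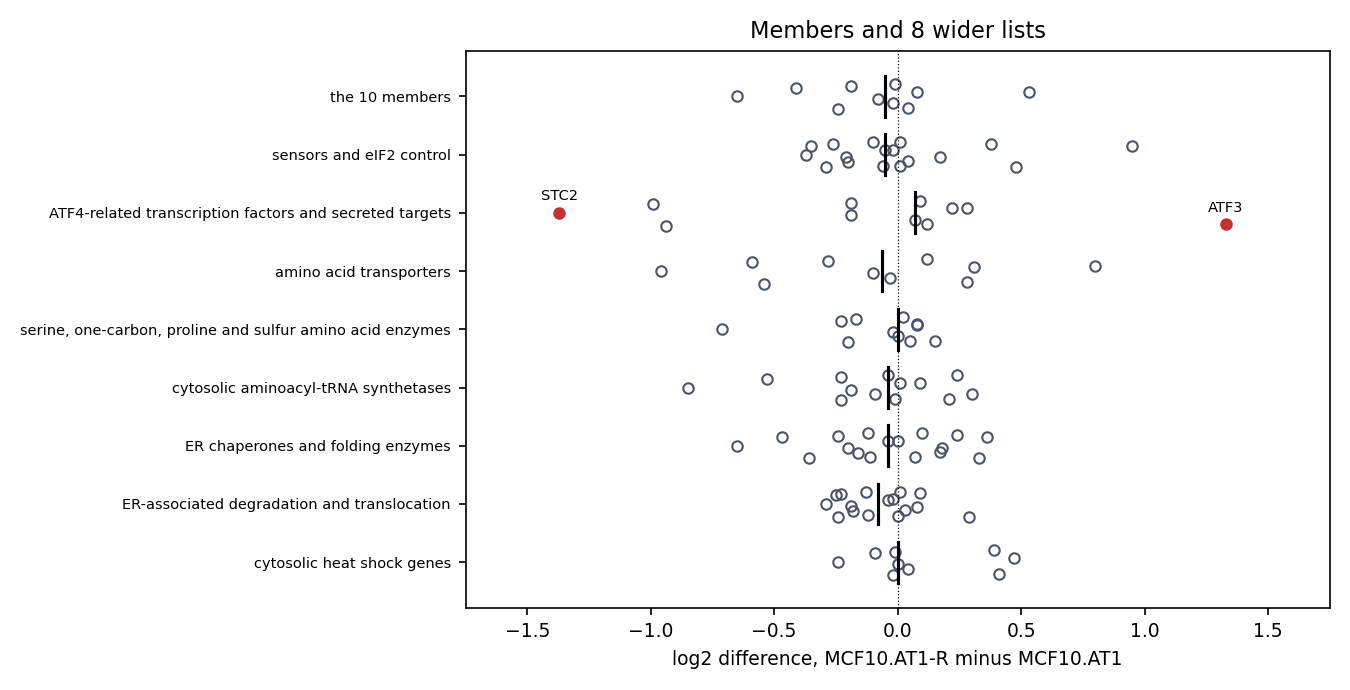
Log2 difference of each gene, MCF10.AT1-R minus MCF10.AT1, for the 10 members and the 8 wider lists. Each circle is a gene, the black bars are medians, and filled red circles passed an FDR of 5% in limma. Only ATF3 and STC2 are filled, on opposite sides, and all list medians lie between -0.08 and 0.07.

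The sensors and the machinery around eIF2 came first. Of the 17 genes 8 passed the filter, and none of these passed the test. EIF2AK3, which encodes PERK, read 5.02 and 5.16 in MCF10.AT1 and 5.46, 5.45 and 5.80 in MCF10.AT1-R, a log2 difference of 0.48 (adjusted p = 0.763 from limma). ERN1, which encodes IRE1, differed by -0.06 and ATF6 by 0.04, both with overlapping lines. PPP1R15A encodes GADD34, the stress-induced subunit that lets a phosphatase remove the phosphate from eIF2α. It was the gene of this list with the largest positive difference, reading 4.99 and 5.17 in MCF10.AT1 and 6.0, 5.85 and 6.23 in MCF10.AT1-R. Its log2 difference of 0.95 is 1.93-fold (standard error 0.31, unadjusted p = 0.0023) and missed the threshold in limma with an adjusted p of 0.126, while the adjusted p was 0.00363 with a variance that follows the level and 0.185 with the low-expression filter alone. MBTPS1, the site-1 protease that cuts both ATF6 and the sterol-regulated factor SREBP, had the largest negative difference, -0.37 (adjusted p = 0.827 from limma).

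Among the 11 other transcription factors, secreted factors and receptors induced through ATF4, 7 passed the filter. Of these, ATF3 rose and STC2 fell. ATF3 is a stress-induced transcription factor reached by ATF4 and by other pathways. It read 2.33 and 2.75 in MCF10.AT1, both within the negative controls, and 3.99, 3.64 and 3.97 in MCF10.AT1-R. The fitted log2 difference was 1.33 (standard error 0.31, interval 0.72 to 1.94, adjusted p = 0.00338 from limma). The ATF3 mean of the MCF10.AT1-R arrays was 1.83-fold above the level of the negative controls, a point value given without its sampling error. With values raised to that level first, the adjusted p was 0.108, and with the low-expression filter alone it was 0.0966. STC2, a secreted glycoprotein induced by endoplasmic reticulum stress, read 6.99 and 6.61 in MCF10.AT1 and 5.35, 5.28 and 5.64 in MCF10.AT1-R. It fell by 1.37 on the log2 scale, or 2.59-fold (standard error 0.31, adjusted p = 0.00188 from limma). With values raised to the negative controls first, the difference of STC2 was unchanged at -1.37, but it did not pass either (adjusted p = 0.0727 from limma). Without A01 neither gene passed, at 0.358 for ATF3 and 0.277 for STC2 (adjusted p from limma), and with the low-expression filter alone STC2 had an adjusted p of 0.0783.

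DDIT4, a stress-induced brake on mTORC1 also known as REDD1, was picked out after its values were seen. It read 8.63 and 8.55 in MCF10.AT1 and 7.77, 7.63 and 7.54 in MCF10.AT1-R, so all resistant arrays lay below both parental arrays. Its log2 difference of -0.94 had an adjusted p of 0.131 in limma and of 1.39e-09 with a variance that follows the level. With the low-expression filter alone its adjusted p was 0.148, and without a filter 0.223. VLDLR of the same list differed by -0.99 (adjusted p = 0.093 from limma), with every MCF10.AT1-R array within the negative controls.

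The filter left 5 of the 10 amino acid transporters. None of these passed the test, and the transporters with the largest differences pointed in opposite directions. SLC7A11, the cystine importer that feeds glutathione synthesis, read 8.23 and 8.15 in MCF10.AT1 and 7.40, 6.96 and 7.34 in MCF10.AT1-R, a log2 difference of -0.96 (adjusted p = 0.119 from limma). SLC7A5, the importer LAT1 for large neutral amino acids, read 9.06 and 9.14 in MCF10.AT1 and 9.89, 9.87 and 9.96 in MCF10.AT1-R, a log2 difference of 0.80 (adjusted p = 0.298 from limma). With a variance that follows the level both passed, SLC7A11 at an adjusted p of 5.82e-08 and SLC7A5 at 8.59e-17, but with the low-expression filter alone these were 0.208 and 0.20. SLC3A2, the heavy chain that both importers need and which was named after its values were seen, differed by 0.28 (adjusted p = 0.833 from limma without a filter). SLC7A11 is also induced by NRF2, so it is not a readout of ATF4 alone.

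**Figure D4:**
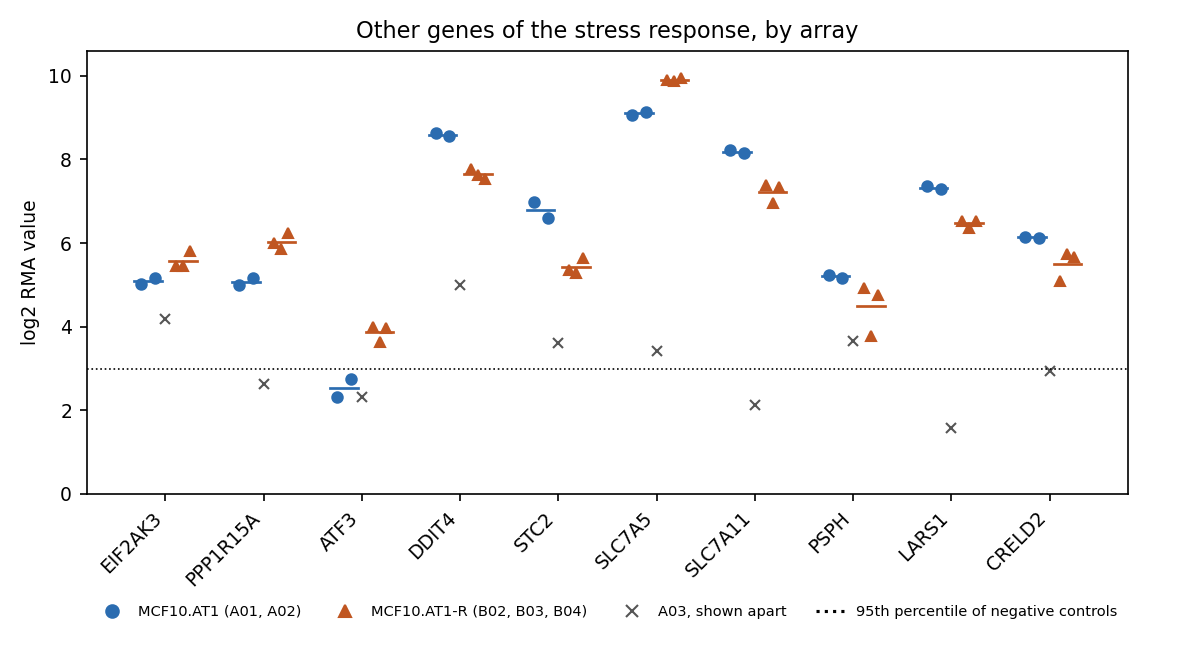
Log2 RMA values of 10 genes of the wider lists on each array, drawn as for the members. The genes drawn were picked from the named genes whose lines did not overlap, as was so for 47.9% of the list genes and 32.8% of all symbols above the negative controls. DDIT4 was picked after its values were seen. Further named genes without overlap were not drawn, with MCF10.AT1-R above for DNAJC3, CARS1, DNAJB1, HSPB1 and SLC3A2 and below for MBTPS1, SEC24D and HSPA1B. The 3 MCF10.AT1-R triangles lie on one side of the 2 MCF10.AT1 circles, above for EIF2AK3, PPP1R15A, ATF3 and SLC7A5 and below for DDIT4, STC2, SLC7A11, PSPH, LARS1 and CRELD2.

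Of the 11 enzymes of serine, one-carbon, proline and sulfur amino acid metabolism 8 passed the filter, and none of these passed the test. The median log2 difference of the 11 was 0.00. Of the 9 above the negative controls on all 5 arrays the lines did not overlap for 2, or 22.2%, against 32.8% of all such symbols. PSPH, which completes serine synthesis after PHGDH and PSAT1, had the largest negative difference. It read 5.24 and 5.17 in MCF10.AT1 and 4.92, 3.77 and 4.77 in MCF10.AT1-R, a log2 difference of -0.71 (adjusted p = 0.435 from limma) that became -0.35 without B03. The preceding enzymes PHGDH and PSAT1 differed by -0.65 and 0.04. CTH, which makes cysteine from cystathionine, had the largest positive difference of the list, 0.15 (adjusted p = 0.909 from limma).

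Of the 13 genes for tRNA charging and export 7 passed the filter. None of these passed the test, and the median of the 13 was -0.04. LARS1, the leucyl-tRNA synthetase, read 7.36 and 7.29 in MCF10.AT1 and 6.53, 6.36 and 6.53 in MCF10.AT1-R, the largest negative difference of the list. The log2 difference of -0.85 had an adjusted p of 0.234 in limma, of 0.00033 with a variance that follows the level and of 0.182 with the low-expression filter alone. At the other end CARS1, the cysteinyl-tRNA synthetase, differed by 0.30 (adjusted p = 0.839 from limma).

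The filter left 5 of the 17 chaperones and folding enzymes of the endoplasmic reticulum. None of these passed the test, and the median log2 difference of the 17 was -0.04. Of the 16 above the negative controls on all 5 arrays, 4 had all MCF10.AT1-R arrays above and 6 below, or 62.5% together, against 32.8% of all such symbols. CRELD2, whose ER stress element is printed above, read 6.15 and 6.13 in MCF10.AT1 and 5.09, 5.73 and 5.66 in MCF10.AT1-R. Its log2 difference of -0.65 (adjusted p = 0.544 from limma) was the largest negative one of the list. DNAJC3, an inhibitor of PERK and co-chaperone of BiP, had the largest positive difference, 0.36 (adjusted p = 0.828 from limma).

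Of the 16 genes of degradation and translocation at the endoplasmic reticulum 6 passed the filter, and none of these passed the test. The log2 differences of the 16 ran from -0.29 to 0.29. The ends of this range were SEC24D, a coat protein of transport vesicles, and HERPUD1, which helps to recruit substrates for degradation. HERPUD1 read 4.71 and 5.08 in MCF10.AT1 and 5.54, 4.56 and 5.46 in MCF10.AT1-R, with overlap of the lines (adjusted p = 0.839 from limma), and its difference was 0.61 without B03.

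The 9 cytosolic heat shock genes answer to HSF1 and not to the endoplasmic reticulum. The filter left 3 of them, and none passed without a variance that follows the level. DNAJB1, a co-chaperone of HSP70, differed by 0.47 (adjusted p = 0.769 from limma, 0.015 with a variance that follows the level and 0.50 with the low-expression filter alone). HSPB1, the small heat shock protein HSP27, named after its values were seen, differed by 0.41, with adjusted p of 0.807, 2.55e-05 and 0.601 in these fits of limma. HSPA1B, an inducible HSP70 whose sequence is nearly the same as that of HSPA1A, differed by -0.24 (adjusted p = 0.866 from limma without a filter).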

How the data were processed

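RNA of 3 arrays per line was profiled on Clariom D. The authors made log2 values from the CEL files by RMA (affy and oligo, versions not given in the sources used here), and these were deposited for 6 arrays, 135750 transcript and 2995 control probe sets. Array names A and B were tied to the lines through the study's principal component plot. The 10 members, the lists and the tests were chosen with earlier results of these data known.

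Without A03, probe sets with a mean above the median (1.88) and an SD above the lowest 25% (0.18) were fitted with limma 3.58.1 in R 4.3.3, MCF10.AT1-R minus MCF10.AT1. P-values were adjusted by Benjamini-Hochberg over 51457 probe sets, FDR 5%. The filter made limma use a common SD of 0.34. Data were simulated with 200 changed probe sets among 135750. There 30.7% of calls were false, 24.2% with a variance trend and 7.08% with the low-expression filter alone, all above the nominal 5%. Calls are therefore given with the low-expression filter alone too. A share of false calls depends on how many probe sets truly change, so these shares need not hold for the calls given here. Of simulated 2-fold changes these 3 fits recovered 41.1%, 42.2% and 30%, so a difference of 2-fold or less could be missed. The background level was the mean over the 5 arrays of the 95th percentile of 612 negative controls (2.99). Intervals are 95%. The labels call the replicates biological, and the number of arrays limits the precision. Genes named from the wider lists are those past FDR 5%, the largest rise and fall of each list, and EIF2AK3, ERN1, ATF6 and PPP1R15A, with DDIT4, SLC3A2 and HSPB1 added after their values were seen. EIF2AK1, IARS1, MANF and VLDLR are given in passing and are not among these named genes. Promoter sequence came from RefSeq. Alternatives changed 1 choice at a time.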

Additional observations from a re-analysis of the deposited data

How the results depend on the processing

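The members tested gave 0 calls at an FDR of 5% under all 13 alternatives. All 10 were tested in 3 of these, and 6 to 9 in the other 10, where the filter removed the rest. Over all probe sets 620 passed, 177 without a filter, 182 with the low-expression filter alone, 1377 with the variance trend, 272 with values raised to the negative controls, 26 with A03 added back, and 271 to 595 with 1 array left out. Of the wider lists 2 genes passed, 0 without a filter, 0 with the low-expression filter alone, 12 with the variance trend, 1 with values raised to the negative controls (SLC7A5, adjusted p = 0.0438 from limma), 0 with A03 added back, and 0 to 2 with 1 array left out, the 0 being without A01. The cause was not tested.

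With A03 counted as MCF10.AT1, 13 of the 32 named genes changed sign, to log2 differences of 1.70 for ATF4, 1.06 for XBP1, 0.76 for ASNS, 0.17 for SESN2, 0.05 for CHAC1, 0.82 for ERN1, 1.25 for MBTPS1, 0.26 for DDIT4, 1.06 for SLC7A11, 1.06 for LARS1, 0.42 for CRELD2, 1.62 for SEC24D and 0.76 for HSPA1B, none of which passed. In that fit PHGDH differed by -0.01 and TRIB3 by 0.49, and ATF3 (1.40, adjusted p = 0.76) and STC2 (-0.31, adjusted p = 0.893 from limma) did not pass. On leaving out 1 array, 7 genes with small differences changed sign: ASNS (-0.46 to 0.30), CHAC1 (-0.26 to 0.22), DDIT3 (-0.57 to 0.08), PSAT1 (-0.03 to 0.09), XBP1 (-0.14 to 0.08), ATF6 (-0.13 to 0.20) and ERN1 (-0.15 to 0.04). PSPH ran from -0.93 to -0.35, HERPUD1 from 0.11 to 0.61, DNAJC3 from 0.19 to 0.54, CTH from 0.01 to 0.30 and SEC24D from -0.40 to -0.18. TRIB3 stayed between 0.46 and 0.57, PHGDH between -0.86 and -0.44 and ATF4 between -0.23 and -0.16. Under the 7 alternatives that kept the 5 arrays no named gene changed sign. With 1 MCF10.AT1 array left out, the lone parental array was assumed to have the spread of the resistant ones. No paired analysis was possible because the array columns carry no replicate numbers. Values near the negative controls (DDIT3, ASNS, ATF3) understate any change.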
